A study of Mus musculus with 6 samples.

Results

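The replication-dependent histone genes are the clustered genes that encode the linker histone H1 and the core histones H2A, H2B, H3 and H4. They were taken as every row of the gene count table whose symbol starts with Hist1h, Hist2h, Hist3h or Hist4h followed by one of these 5 classes and whose annotated type is protein coding. This gave 68 genes of the 43346 in the table: 6 of class H1, 19 of H2A, 18 of H2B, 12 of H3 and 13 of H4. The rule reads names and the annotated type, but the family itself was chosen by a measured value: its fold changes between senescent and control cells in these 6 libraries were known when it was proposed. Those fold changes are therefore given as a description. Calls of members in the fit across all genes are counted beside the share of all genes called, but nothing is read from these counts, and no p-value of a single member is given. The annotated type left out 2 histone pseudogenes, *Hist1h2aj* and *Hist3h2bb-ps*.

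The counts came from RNA-seq of primary mouse adult fibroblasts (MAFs), 3 control and 3 senescent libraries. The cells came from the ears of C57BL6/J mice (adult females), were kept at 3% oxygen and were used between passages 3 and 8, and a culture of this kind can hold other ear cells beside fibroblasts. Senescent cells received 20 Gy of x-rays and control cells a sham irradiation, senescent cells were used 21 days after irradiation, and both groups were given 100 nM dexamethasone for 2 hours to synchronise their clocks and were collected 12 hours later. The comparison asks how gene expression differs between senescent and non-senescent cells at that time. Nothing in the labels says whether the 3 replicates of a group came from separate mice or cultures, so the p-values measure only the spread between these libraries.

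Most mRNAs end in a poly(A) tail. Replication-dependent histone mRNAs are the known exception in animal cells: they end just after a short stem-loop in the 3′ untranslated region, which is bound by the protein SLBP, and they accumulate while DNA is copied in S phase and are degraded when copying stops. Some of these genes can also give longer, polyadenylated transcripts from signals downstream of the stem-loop. The libraries were made with a kit that selects poly(A) RNA (TruSeq Stranded mRNA), so the counts describe histone RNA that passed this selection and not the bulk of stem-loop-ended histone mRNA. How much of each gene's RNA carried a tail was not measured.

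The stem-loop defines the family and is shown for 7 members whose values are described below. A match was searched in the annotated transcripts (GENCODE M21, GRCm38) and was found in 46 of the 68 genes. The 16 bases of the stem-loop are in capitals and the flanking bases in lower case, 5′ to 3′ on the gene's strand.
Hist1h1c (chr13:23739512-23739527, plus strand): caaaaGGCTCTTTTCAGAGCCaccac
Hist1h2ab (chr13:23751572-23751587, plus strand): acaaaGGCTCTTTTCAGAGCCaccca
Hist1h3b (chr13:23752820-23752835, plus strand): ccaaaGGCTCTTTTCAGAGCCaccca
Hist1h2be (chr13:23585531-23585546, minus strand): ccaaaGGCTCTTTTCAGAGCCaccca
Hist1h3f (chr13:23544932-23544947, plus strand): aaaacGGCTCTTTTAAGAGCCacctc
Hist1h4m (chr13:21812129-21812144, plus strand): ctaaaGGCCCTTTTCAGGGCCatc
Hist2h4 (chr3:96262939-96262954, minus strand): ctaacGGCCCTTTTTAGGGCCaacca

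The first form, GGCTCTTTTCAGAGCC, stood in 26 genes of classes H1, H2A, H2B and H3. The form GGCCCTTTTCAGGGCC stood in 7 genes, all of class H4, and the form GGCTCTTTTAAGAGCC in 6 genes of H1, H2B and H3. The stem bases thus differed by class: no H4 gene held the first form. For the other 22 genes the annotated transcripts stop before a stem-loop or hold none.

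Promoters were read for 60 of the 68 genes (RefSeq, GRCm38.p6, from 250 bases before to 50 after the start), and each motif was searched on both strands. CCAAT, the box bound by the factor NF-Y, lay in 51 of 60 windows (85.0%), against 42.3% of 17492 protein-coding genes. It was in every window of H1 (6 of 6), H2A (16 of 16), H2B (16 of 16) and H3 (10 of 10), and in 3 of 12 of H4. TATAAA lay in 34 of 60 windows (56.7%), against 14.8% of protein-coding genes. The octamer ATTTGCAT, known from H2B promoters as a site of the factor Oct-1, lay in 7 of 16 H2A and 7 of 16 H2B windows, in no window of the other classes and in 1.90% of protein-coding genes. Many H2A and H2B genes lie head to head, with 12 such pairs 235 to 305 bases apart, so both partners share one window's bases. The 150 bases before the start are printed for 3 genes with large fold changes, with these motifs in capitals on either strand.
Hist1h2ab (chr13:23750938-23751087, plus strand): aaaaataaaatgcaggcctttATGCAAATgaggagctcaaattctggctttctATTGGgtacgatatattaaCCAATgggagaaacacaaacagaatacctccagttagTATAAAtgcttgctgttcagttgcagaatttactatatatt
Hist1h3b (chr13:23752195-23752344, plus strand): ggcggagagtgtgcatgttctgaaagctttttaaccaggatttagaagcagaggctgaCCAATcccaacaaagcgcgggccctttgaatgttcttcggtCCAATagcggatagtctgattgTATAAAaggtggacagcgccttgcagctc
Hist1h4m (chr13:21811596-21811745, plus strand): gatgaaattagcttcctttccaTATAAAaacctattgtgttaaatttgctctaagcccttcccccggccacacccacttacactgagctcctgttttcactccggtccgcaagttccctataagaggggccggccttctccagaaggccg

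In these windows the H2A gene carried the octamer and CCAAT on both strands, the H3 gene carried CCAAT in 2 places, and the H4 gene carried neither. A match describes letters only and was not tested as a site.

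Library totals ranged from 50288454 to 82229553 counts. Pairs of replicates differed by more than sampling noise, and senescent replicate 3 differed most from its group. The cells expressed the 12 listed fibroblast markers in both groups. Cartilage markers were also high in control: the summed level of 11 listed genes was 6916 to 7474 CPM (counts per 1000000 of a library, TMM-scaled) in control and 607 to 701 CPM in senescent libraries. More genes held a count in senescent libraries (25034 to 26281) than in control (21416 to 21833). In RNA from a whole culture, fewer cells of a type and less RNA per cell cannot be told apart.

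Histone transcripts that passed the poly(A) selection were higher in senescent MAFs. Their summed level was 79.4, 87.2 and 85.4 CPM in the control libraries and 252, 268 and 235 CPM in the senescent libraries, a ratio of 3.00 between the group means. The ranges were apart, by more than the distance between any pair of replicates. Of the 68 genes, 35 passed the filter on low counts and entered the fit of all 17589 tested genes. Of these, 31 were called higher in senescent cells (edgeR's quasi-likelihood test, adjusted p under 0.05), 0 were called lower and 4 were not called. This tally restates the values by which the family was proposed and supports nothing. Across all genes tested, 36.2% were called higher and 34.1% lower, 70.3% in all. The median log2 fold change was 2.35 in the 35 histone genes, from -0.36 to 5.64, and 0.01 in all genes tested.

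The filter itself leans towards genes that are high in one group, so counts and medians are given below also without the members that had under 10 counts in every control library. Of the 35 tested members, 13 were of that kind. Among all tested genes of that kind 97.6% were called higher, so nothing is read from their 12 calls. The split does not free the rest of this lean. Some of them, such as *Hist2h2aa1* with 8, 10 and 5 counts in control, also needed the senescent libraries to pass. Of the 22 others, 19 were called higher with a median log2 fold change of 1.96, where 31.8% of all such genes were called higher. Of these 22, 15 had a control mean under 1 CPM, and 12 of the 15 were called higher with a median of 2.33, against 36.5% and a median of 0.28 for all such genes at that level. The 7 with a control mean of 1 CPM or more were all called higher, with a median of 1.46, against 30.7% and a median of -0.11. In the 12 members with 10 or more counts in each of the 6 libraries, 12 were called higher with a median of 1.77, where 31.7% of genes of that kind were called higher.

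Counting all 68 members without the filter, 43 had every senescent library above every control library, 0 had the reverse and 25 overlapped. Among all genes with at least 1 count, 31.1% lay apart in the higher direction and 23.5% in the lower, and among the genes tested 38.4% and 37%, 75.3% in all. Of the 25 that overlapped, 4 had 0 counts in all 6 libraries: *Hist1h2aa*, *Hist1h2ao*, *Hist1h2ap* and *Hist1h2ba*. Only 7.3% and 7.8% of the 100-base stretches of *Hist1h2ao* and *Hist1h2ap* are found in no other gene. Their counts thus also depend on how reads that map to several places were treated. The senescent mean was above the control mean in 55 members and below it in 9. The 9 were *Hist1h2bl*, *Hist1h2bm*, *Hist1h4k*, *Hist1h2ah*, *Hist1h2bk*, *Hist1h3g*, *Hist1h2bh*, *Hist1h2bf* and *Hist1h2al*, all under 20 counts in every library. GENCODE M21 lists the last of these as a pseudogene.

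Histone genes are short and mostly without introns, so other genes of that build were read beside them. Of 409 tested single-exon protein-coding genes outside the family, 32.5% were called higher and 35.5% lower, with a median log2 fold change of -0.13. Of 586 tested protein-coding genes of 1000 bases or less, 25.4% were called higher and 44.4% lower, with a median of -0.26. In both sets fewer genes were called higher than lower.

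**Figure D1:**
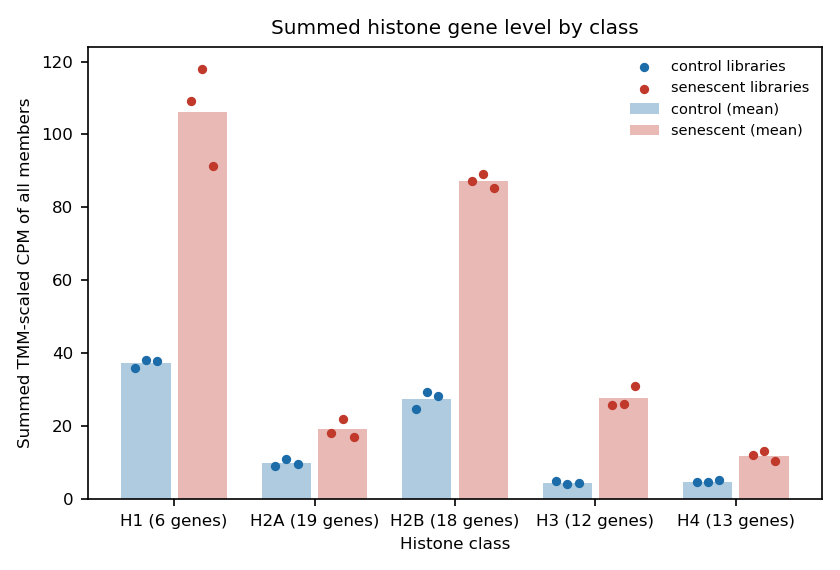
Summed level of all members of each histone class in TMM-scaled CPM (y axis, from 0) by class (x axis). Bars are group means and points the 3 control and 3 senescent libraries. In each class the senescent points lie above the control points, and H1 and H2B make up most of the total.

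H1 linker histones bind the DNA between nucleosomes and compact chromatin. All 6 genes of the class lie in the Hist1 cluster on chromosome 13, 5 were tested and 5 were called higher (4 without *Hist1h1a*, which passed the filter only through the senescent libraries), and the class sum went from 36.0, 38.0 and 37.8 CPM in control to 109, 118 and 91.4 CPM in senescent libraries. *Hist1h1c*, now named H1f2 and a single exon at chr13:23738808-23740367, was the most abundant member of the whole family in CPM. Its level was 35.2, 37.1 and 37.1 CPM in control and 103, 112 and 85.9 CPM in senescent libraries, a log2 fold change of 1.46 ± 0.10 (SE, n = 3 per group). The control libraries were close together and the senescent libraries lay far above them.

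The other H1 genes were far lower. *Hist1h1e* had 0.281, 0.284 and 0.266 CPM in control and 2.44, 2.40 and 2.75 CPM in senescent libraries, a log2 fold change of 3.18 ± 0.16. *Hist1h1d* had 0.180, 0.251 and 0.143 CPM against 2.13, 2.15 and 1.84 CPM, a log2 fold change of 3.37 ± 0.21. *Hist1h1b* had 0.301, 0.268 and 0.245 CPM against 0.830, 1.02 and 0.758 CPM, a log2 fold change of 1.68 ± 0.22. Groups did not overlap in any of these, and the 4 genes differed in size of change, with *Hist1h1c* smallest and *Hist1h1d* and *Hist1h1e* largest. *Hist1h1a* held 1, 7 and 3 counts in control and 23, 25 and 15 counts in senescent libraries, a log2 fold change of 2.05 ± 0.56. *Hist1h1t*, the testis H1, had at most 5 counts in any library and was not tested.

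H2A pairs with H2B in the outer part of the nucleosome. Of 19 H2A genes, 6 were tested and 6 were called higher. Of these, 3 (*Hist1h2ab*, *Hist1h2ac* and *Hist1h2ad*) had under 10 counts in every control library, and the median log2 fold change of the other 3 was 1.43, against 3.20 for all 6. The class sum was 9.12, 11.0 and 9.63 CPM in control and 18.2, 22.1 and 17.1 CPM in senescent libraries. Most of it was *Hist3h2a* at chr11:58954685-58956830, which stood at 8.30, 10.4 and 8.85 CPM in control and 13.3, 16.1 and 11.6 CPM in senescent libraries, a log2 fold change of 0.57 ± 0.14. Its groups did not overlap, but the gap was small beside the spread within the senescent group. Its span overlaps *Trim17* on the same strand, so reads of both genes could be shared.

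The H2A genes of clusters Hist1 and Hist2 were near the limit of detection in control. *Hist1h2ab* held 2, 1 and 1 counts in control and 60, 105 and 104 counts in senescent libraries, which is 0.0401, 0.0167 and 0.0204 CPM against 1.08, 1.33 and 1.23 CPM. The ratio of summed counts per depth was 48.7, with a 95% counting interval of 18.8 to 180 (exact Clopper-Pearson, counting error only). In *Hist1h2ab* and *Hist1h2ad* 47.6% and 36.4% of the stretches of 100 bases are found in no other gene. *Hist1h2ac* had 0.0802, 0.0669 and 0.143 CPM against 0.938, 1.11 and 1.32 CPM, a log2 fold change of 3.55 ± 0.30. *Hist2h2aa1* had 0.160, 0.167 and 0.102 CPM against 1.03, 1.29 and 0.900 CPM, a log2 fold change of 2.87 ± 0.27. Its sequence is shared in full with other loci: it has no stretch of 100 bases of its own, so its counts depend on how reads that map to several places were treated, which is not given in the sources used here. Of the others tested, *Hist1h2ad* had a log2 fold change of 3.53 ± 0.28, and *Hist2h2ab*, with 10, 5 and 1 counts against 18, 17 and 25 counts, one of 1.43 ± 0.53 whose call was lost without control replicate 2, control replicate 3 or senescent replicate 1.

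The 13 untested H2A genes held few counts. *Hist1h2af* had 0, 0 and 3 counts in control and 17, 14 and 8 in senescent libraries, and *Hist2h2ac* 0, 1 and 1 against 2, 19 and 7, with no overlap in either. *Hist1h2ae* had 7, 9 and 8 counts against 7, 15 and 15. *Hist1h2ai*, *Hist2h2aa2*, *Hist1h2ah*, *Hist1h2al*, *Hist1h2an*, *Hist1h2ag* and *Hist1h2ak* had at most 8 counts in any library. Of these 7, *Hist1h2ai* (0, 2 and 3 counts against 4, 7 and 7) and *Hist2h2aa2* (0, 0 and 1 against 2, 8 and 3) had no overlap between groups, while *Hist1h2aa*, *Hist1h2ao* and *Hist1h2ap* had no counts.

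H2B had 18 genes, of which 9 were tested, 7 were called higher and 2 were not called, and 1 of the 7, *Hist1h2bp*, passed the filter only through the senescent libraries. The class sum was 24.8, 29.4 and 28.4 CPM in control and 87.3, 89.0 and 85.4 CPM in senescent libraries. *Hist1h2bc* (chr13:23684199-23692488, 2 exons) stood at 17.7, 21.8 and 21.8 CPM in control and 58.5, 60.9 and 53.2 CPM in senescent libraries, a log2 fold change of 1.49 ± 0.10. Per kilobase of counted exon it was the highest of the family in both groups, 27.8 CPM per kilobase in control and 78.2 in senescent cells, followed by *Hist1h1c* with 23.4 and 64.4. Together *Hist1h1c* and *Hist1h2bc* held 67.7% of the family's control CPM and 62.7% of its senescent CPM. Without both, the summed level of the 66 other genes was 26.5, 28.3 and 26.5 CPM in control and 90.7, 95.2 and 96.3 CPM in senescent libraries, a ratio of 3.47.

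*Hist1h2be* gave the widest gap among well-counted genes of this class. It had 2.07, 1.82 and 1.80 CPM in control and 19.0, 18.1 and 21.9 CPM in senescent libraries, from 88 to 109 counts against 1054 to 1845, a log2 fold change of 3.38 ± 0.11. It has 2 exons over chr13:23583742-23621124 and overlaps *Gm11398* on the same strand. *Hist2h2be* had 3.99, 4.10 and 3.43 CPM against 5.25, 5.14 and 5.73 CPM, a log2 fold change of 0.48 ± 0.11. *Hist1h2bg* had 0.341, 0.602 and 0.450 CPM against 1.64, 1.77 and 1.71 CPM, a log2 fold change of 1.86 ± 0.20. The 3 genes were each apart between groups, but *Hist2h2be* by far less than *Hist1h2be*. *Hist1h2bh* was the single tested member with a fold change below 0: it had 0.120, 0.251 and 0.184 CPM in control and 0.162, 0.177 and 0.107 CPM in senescent libraries, the groups overlapped, and it was not called. *Hist1h2bn* was also not called, with 3, 3 and 14 counts against 23, 35 and 13 counts and a log2 fold change of 1.36 ± 0.67.

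Of the other tested H2B genes, *Hist1h2bj* and *Hist1h2bb* had log2 fold changes of 2.69 ± 0.28 and 2.33 ± 0.36. *Hist1h2bp*, with 7, 2 and 0 counts against 12, 16 and 25 counts, had one of 2.04 ± 0.67, and its call was lost without control replicate 2 or control replicate 3. The 9 untested genes were *Hist2h2bb*, *Hist1h2br*, *Hist1h2bq*, *Hist3h2ba*, *Hist1h2bf*, *Hist1h2bl*, *Hist1h2bk*, *Hist1h2bm* and *Hist1h2ba*, with at most 13 counts in any library.

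H3, the histone whose tail carries many known chromatin marks, had the largest ratio of class sums. The 12 genes summed to 4.91, 4.13 and 4.39 CPM in control and 25.9, 26.0 and 31.0 CPM in senescent libraries, a ratio of 6.17, against 2.85 for H1, 1.93 for H2A, 3.17 for H2B and 2.48 for H4. Of the 12, 6 were tested and 6 were called higher. Of these, 3 (*Hist1h3b*, *Hist1h3f* and *Hist1h3i*) passed the filter only through the senescent libraries, and the median log2 fold change of the other 3 was 2.75, against 3.12 for all 6. *Hist2h3c1* on chromosome 3 (chr3:96246685-96248504) led with 3.09, 2.81 and 3.23 CPM in control and 14.1, 14.0 and 18.2 CPM in senescent libraries, a log2 fold change of 2.35 ± 0.13. *Hist2h3c2* followed with 0.982, 0.753 and 0.654 CPM against 4.85, 5.41 and 5.76 CPM, a log2 fold change of 2.75 ± 0.16. Both genes were apart between groups in every library. No 100-base stretch of *Hist2h3c1* is its own, 38.4% of those of *Hist2h3c2* are, and *Hist2h3c1* overlaps *Gm20634* on the same strand, so how counts divide between these loci is uncertain.

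*Hist1h3b* had the largest fitted fold change of the family. It held 5, 5 and 1 counts in control and 193, 260 and 330 counts in senescent libraries, or 0.100, 0.0837 and 0.0204 CPM against 3.48, 3.28 and 3.91 CPM. The log2 fold change was 5.64 ± 0.27, and the ratio of summed counts per depth was 51.5, with a counting interval of 28.6 to 104. Of the 100-base stretches of *Hist1h3b* 43.4% are its own, so its counts also depend on how shared reads were treated. *Hist1h3d* had 0.120, 0.184 and 0.286 CPM against 2.07, 1.72 and 2.07 CPM, a log2 fold change of 3.30 ± 0.25. *Hist1h3f*, whose stem-loop is of the third form above, had 4, 6 and 0 counts in control and 25, 46 and 38 counts in senescent libraries. *Hist1h3i* had 2, 0 and 1 counts against 15, 17 and 23 counts. The untested H3 genes were *Hist1h3a*, *Hist1h3c*, *Hist1h3e*, *Hist1h3g*, *Hist1h3h* and *Hist2h3b*, with at most 21 counts in any library. In senescent cells *Hist1h3b* reached 5.74 CPM per kilobase, near *Hist3h2a* with 6.36, while in control it had 0.110 CPM per kilobase against 4.27.

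H4 forms the core tetramer with H3. Of its 13 genes, 9 were tested, 7 were called higher and 2, *Hist1h4j* and *Hist4h4*, were not called. Only 4 of the 9 had 10 counts in a control library, and 3 of these 4 were called higher, with a median log2 fold change of 1.49 against 2.35 for all 9. The class sum was 4.57, 4.65 and 5.11 CPM in control and 12.0, 13.2 and 10.4 CPM in senescent libraries. *Hist1h4i* (chr13:22040636-22041362) made up most of the control sum and changed least, with 3.31, 3.35 and 3.72 CPM in control and 4.89, 4.95 and 4.16 CPM in senescent libraries and a log2 fold change of 0.43 ± 0.11. *Hist2h4* had 0.702, 0.469 and 0.490 CPM against 2.24, 2.37 and 2.35 CPM, a log2 fold change of 2.07 ± 0.17.

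The 2 next H4 genes had few counts in control, in RNA that passed the poly(A) selection. *Hist1h4m* held 0, 5 and 6 counts in control and 98, 180 and 103 counts in senescent libraries, a ratio of summed counts per depth of 25.1 with a counting interval of 13.9 to 50.6. *Hist1h4h* had 0.0601, 0.117 and 0.204 CPM against 1.21, 1.27 and 0.675 CPM, a log2 fold change of 3.03 ± 0.43. *Hist1h4d* held 0, 2 and 0 counts against 21, 50 and 61 counts, too few in control for a firm ratio: 47.8 with a counting interval of 13.0 to 399. Only 11.9% of the 100-base stretches of *Hist1h4m* are its own, whereas all of those of *Hist1h4d* are. *Hist4h4*, the lone gene on chromosome 6, held 9, 4 and 2 counts against 16, 20 and 10 counts, and *Hist1h4j* 4, 12 and 5 against 7, 25 and 23, with log2 fold changes of 1.15 ± 0.57 and 0.90 ± 0.47 and overlapping groups. *Hist1h4c* and *Hist1h4n* had log2 fold changes of 3.79 ± 0.53 and 2.35 ± 0.52. The 4 untested H4 genes, *Hist1h4a*, *Hist1h4b*, *Hist1h4f* and *Hist1h4k*, had at most 15 counts in any library.

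**Figure D2:**
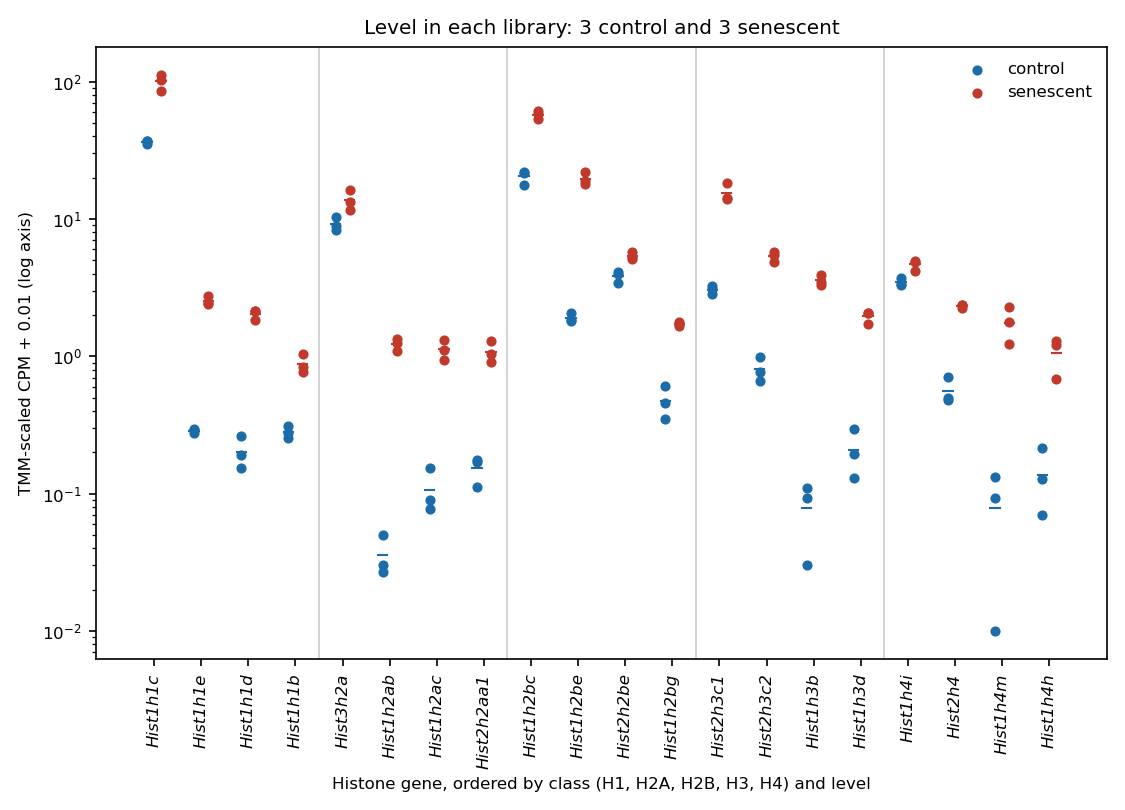
Level of 20 histone genes in each library, in TMM-scaled CPM plus 0.01 on a log axis (y axis), ordered by class and level (x axis). Points are the 3 control and 3 senescent libraries and dashes the group means. Each gene's senescent points lie above its control points, and the gaps are narrowest for *Hist3h2a*, *Hist2h2be* and *Hist1h4i*.

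**Figure D3:**
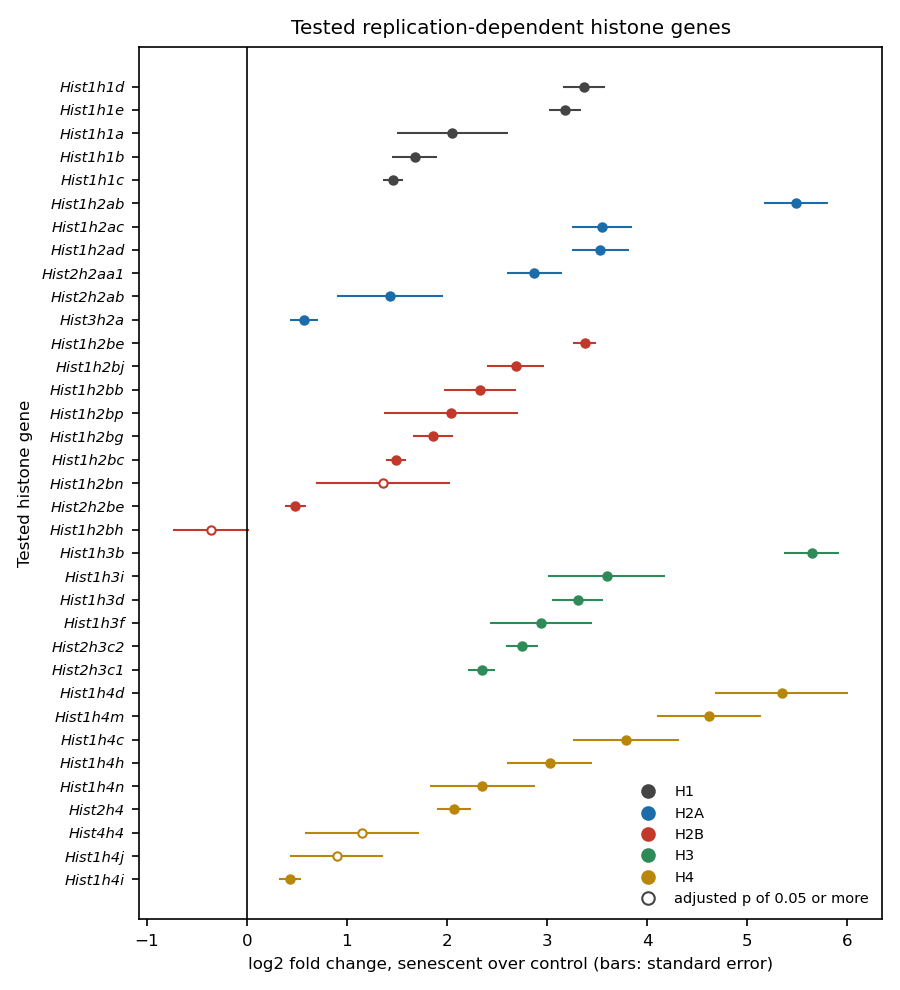
Log2 fold change of senescent over control cells (x axis) with its standard error for the 35 tested histone genes (y axis), coloured by class. Open symbols mark the 4 genes not called at an adjusted p under 0.05. Fold changes run from -0.36 for *Hist1h2bh* to 5.64 for *Hist1h3b*, and small and large values occur in H2A, H2B and H4 alike.

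The genes fall into clusters on 4 chromosomes. Hist1, on chromosome 13, holds 55 members, of which 27 were tested and 24 called higher with a median log2 fold change of 2.94. Of the 27, 12 had under 10 counts in every control library, and the 15 others had a median of 1.86. Its sum went from 61.7, 68.3 and 68.4 CPM to 211, 223 and 190 CPM. Hist2, on chromosome 3, holds 10 members, of which 6 were tested and 6 called higher with a median of 2.21. All 6 had 10 or more counts in at least 1 control library, but *Hist2h2aa1*, with 8, 10 and 5, still relied on the senescent libraries to pass. The Hist2 sum went from 9.20, 8.45 and 8.07 CPM to 28.0, 28.9 and 33.5 CPM. The order of the cluster medians thus depended on which members were counted. Both large clusters were higher in each senescent library, by ratios of 3.14 and 3.52. Hist3, on chromosome 11, holds *Hist3h2a* and *Hist3h2ba*. *Hist3h2ba* had 0 counts in each control library and 3, 5 and 1 counts in senescent libraries.

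Within Hist1 the genes lie in separate stretches more than 100 kb apart. The stretch from 23531050 to 23764358 on chromosome 13 holds 29 members, 18 of them tested and 17 called higher with a median of 3.24, and 78.4% of the family's senescent CPM. Of the 18, 8 passed the filter only through the senescent libraries, and the other 10 had a median of 2.68. The stretch from 21715763 to 21837530 holds 18 members, 7 tested and 5 called higher with a median of 2.04 (1.36 for the 3 that had 10 counts in a control library), and its sum was 0.762, 1.04 and 1.25 CPM against 4.20, 5.15 and 3.66 CPM. A small stretch from 22035164 to 22043676 holds 5 members, 2 of them tested. The pair *Hist1h2ba* and *Hist1h2aa*, which lie apart from the rest and are known from testis, had no count in any library. Both stretches with many members were higher in each senescent library, and neighbours still differed. Of the 12 head-to-head H2A and H2B pairs, *Hist1h2ac* and *Hist1h2bc* is the one with both partners tested: they are 274 bases apart, with log2 fold changes of 3.55 and 1.49.

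Annotated ends gave another way to order the genes. A poly(A) signal (AATAAA or ATTAAA) stood within the last 50 bases of an annotated transcript in 17 members. Their sum was 57.3, 60.7 and 59.2 CPM in control and 164, 176 and 152 CPM in senescent libraries, and the 11 tested had a median log2 fold change of 1.46, from 0.43 to 3.38. The 51 members without such a signal summed to 22.1, 26.5 and 26.1 CPM in control and 88.1, 92.7 and 83.8 CPM in senescent libraries, and the 24 tested had a median of 2.91, from -0.36 to 5.64. Most of the sum with a signal was *Hist1h1c*, at means of 36.5 CPM in control and 100 CPM in senescent libraries. Most of the sum without a signal was *Hist1h2bc*, at means of 20.4 and 57.5 CPM. Of the 24, 11 had under 10 counts in every control library, against 2 of the 11 with a signal, and the medians without them were 2.33 and 1.46. The ranges of the 2 groups overlapped, and the control level differed as well, with medians over tested genes of 0.433 CPM per kilobase with the signal and 0.243 without.

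Genes were also grouped by how far the gene model runs past the stem-loop. In 14 members the counted span runs 100 bases or more past the stem-loop, as in *Hist1h1c* (840 bases), *Hist3h2a* (1643 bases) and *Hist1h2be* (1789 bases). They summed to 54.3, 57.2 and 56.0 CPM in control and 163, 175 and 151 CPM in senescent libraries, a ratio of 2.92, and the 11 tested had a median log2 fold change of 2.04. In 32 members the span ends within 100 bases of the stem-loop, as in *Hist1h3b* (51 bases) and *Hist1h2ab* (11 bases). They summed to 2.59, 3.25 and 2.88 CPM in control and 22.6, 24.2 and 22.8 CPM in senescent libraries, a ratio of 7.99, and the 17 tested had a median of 3.30. The 22 members with no stem-loop in their annotated transcripts had a ratio of sums of 2.60 and a median of 1.49 over 7 tested genes. *Hist1h2bc* made up most of the sums of these 22, and *Hist1h1c* most of the sums of the 14 with a long span. Without the members that had under 10 counts in every control library (3, 8 and 2 in the 3 groups), the medians were 1.77, 2.87 and 1.43. Where reads fell along each gene is not given by counts per gene, so reads past the stem-loop were not told from reads before it, and RNA past the end of a short model was not counted.

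**Figure D4:**
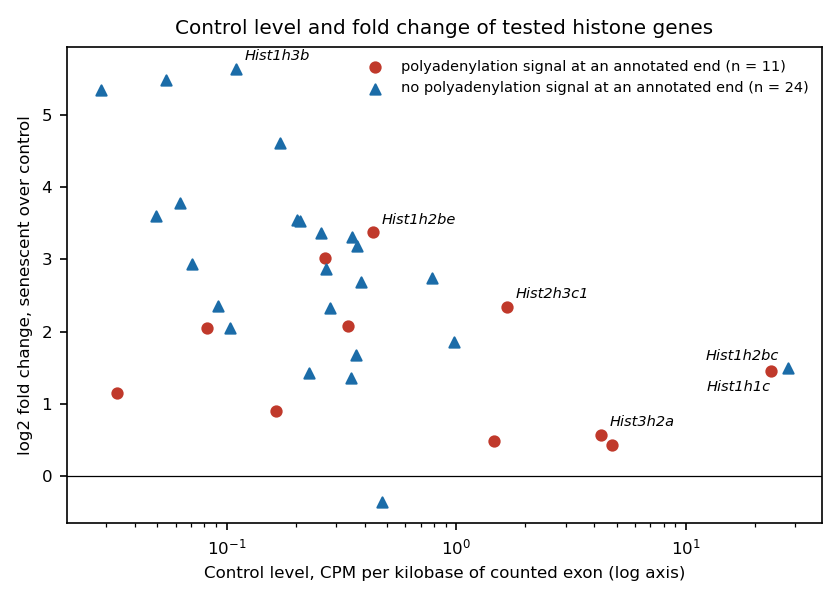
Log2 fold change of senescent over control cells (y axis) against the control level in CPM per kilobase of counted exon on a log axis (x axis) for the 35 tested histone genes. Circles are the 11 genes with a poly(A) signal at an annotated end and triangles the 24 without. The 2 genes at the right, *Hist1h2bc* and *Hist1h1c*, have log2 fold changes of 1.49 and 1.46, and the values above 4 all lie under 1 CPM per kilobase in control.

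Low counts were higher in senescent libraries in genes that fibroblasts are not known to use as well. The 1102 olfactory receptor genes together had 0.00110 to 0.00155 CPM per kilobase in control and 0.00679 to 0.00774 in senescent libraries, with a count in 11 to 18 of them against 105 to 123. The histone family had 1.5 to 1.64 CPM per kilobase in control and 4.44 to 5.06 in senescent libraries. In senescent cells 60 members, all 35 tested ones among them, exceeded 5 times the highest olfactory receptor level. That bar is low: *Hist3h2ba*, with 3, 5 and 1 counts in senescent libraries, exceeded it too. The filter on counts also favours members above it, so nothing is read from these numbers. In control, 7 members were at or under that highest level.

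Markers of other cell types moved as well. Of the tested markers, 6 of 6 macrophage and 6 of 6 endothelial genes rose, 4 of 7 keratinocyte genes rose and 1 fell, and 9 of 10 cartilage genes fell and 1 rose. Across all genes tested, 36.2% rose and 34.1% fell. Among tested genes with under 10 counts in every control library 97.6% rose, so a rise in low-count markers says little. Summed levels were 8.24 to 9.05 CPM in control and 18.7 to 21.8 CPM in senescent libraries for macrophage, 2.89 to 3.20 and 10.2 to 10.8 CPM for endothelial, and 16.5 to 17.1 and 30.5 to 31.2 CPM for keratinocyte markers. Beside the 6 tested macrophage markers, all of which rose, *C1qa*, *C1qb* and *Tyrobp* had a mean of at most 0.00996 CPM in both groups and were not tested. Of the tested fibroblast markers, 3 rose and 7 fell, of the tested muscle markers 1 rose and 1 fell, and of the tested Schwann cell and melanocyte markers 2 rose and 4 fell. The part of these cells, and of the larger number of low-count genes, in the histone result was not tested.

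Other histone genes moved the other way. Variant histones are made mostly from polyadenylated mRNAs, also outside S phase, by genes scattered over the genome. Of 16 listed genes that the counts cover 12 were tested, and 10 fell, 0 rose and 2 were not called. Their median log2 fold change was -1.56, and 34.1% of all genes fell. *H2afz*, the variant found at promoters, stood at 98.2, 109 and 104 CPM in control and 18.9, 20.3 and 18.7 CPM in senescent libraries, a log2 fold change of -2.43 ± 0.07 (adjusted p = 5.93e-08 by edgeR). *Cenpa*, the histone of centromeres, fell from 65.0, 62.0 and 66.9 CPM to 2.60, 1.96 and 2.39 CPM, with an adjusted p of 2.77e-08 by edgeR. *H1f0*, a linker histone of non-dividing cells, fell from 271, 281 and 281 CPM to 106, 106 and 107 CPM, with an adjusted p of 2.01e-07 by edgeR. In each of these 3 genes the groups were far apart, in the direction opposite to *Hist1h1c*.

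The variants of DNA damage and of transcribed chromatin were lower too. *H2afx*, whose protein is phosphorylated at DNA breaks, had 17.4, 22.2 and 21.5 CPM against 6.80, 7.12 and 5.88 CPM (adjusted p = 1.13e-05 by edgeR). The H3 variant genes *H3f3a* and *H3f3b* had log2 fold changes of -1.49 ± 0.07 and -0.54 ± 0.07 (adjusted p = 1.08e-06 and 0.000267 by edgeR). *H2afj*, a variant of H2A, had 8.80, 10.4 and 10.7 CPM in control and 10.9, 11.3 and 10.5 CPM in senescent libraries, a log2 fold change of 0.12 ± 0.10 that did not pass (adjusted p = 0.278 by edgeR). In RNA that passed the poly(A) selection, the control sums were 84.0 CPM for the clustered genes and 1111 to 1187 CPM for the listed variants. In senescent cells they were 252 CPM and 535 to 570 CPM. The bulk of stem-loop-ended histone mRNA is outside these sums, so they do not give total histone RNA.

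**Figure D5:**
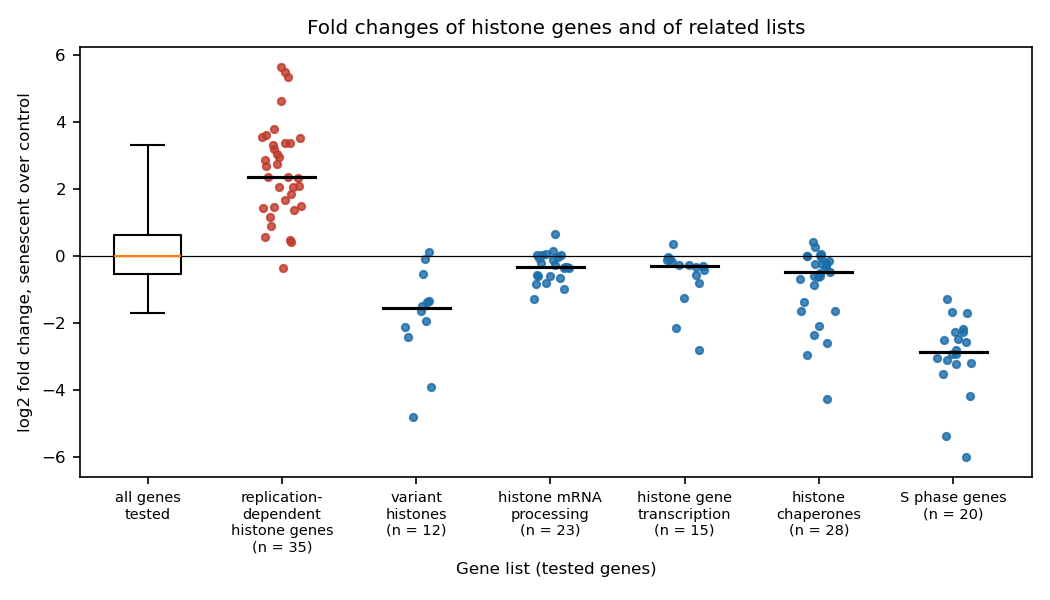
Log2 fold change of senescent over control cells (y axis) for tested genes of each list (x axis), with the list's median as a bar. The box shows all genes tested, with quartiles and whiskers from the 5th to the 95th percentile. The clustered histone genes have a median of 2.35 and the variant histones, processing, transcription, chaperone and S phase lists medians from -2.85 to -0.28.

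Of 23 genes for factors that process histone mRNA, all tested, 12 fell, 2 rose and 9 were not called, with a median log2 fold change of -0.32, where 34.1% of all genes fell. With 1 library left out, 11 to 17 of the 23 were called in either direction. *Slbp*, which encodes the stem-loop binding protein, fell from 52.5, 52.8 and 49.3 CPM to 19.2, 19.4 and 24.4 CPM, a log2 fold change of -1.30 ± 0.10 (adjusted p = 1.48e-05 by edgeR). *Lsm10* and *Lsm11*, components of the U7 particle that directs the cut after the stem-loop, had log2 fold changes of -0.81 ± 0.11 and -0.61 ± 0.08 (adjusted p = 0.000247 and 0.000195 by edgeR). *Fip1l1*, a subunit of the general poly(A) machinery, rose from 71.1, 69.2 and 70.5 CPM to 107, 108 and 120 CPM (adjusted p = 3.56e-05 by edgeR). *Ncbp2*, of the cap-binding complex, had a log2 fold change of 0.16 ± 0.06 that passed (adjusted p = 0.0342 by edgeR) but was lost in 6 of 13 alternative analyses, with adjusted p up to 0.142 without control replicate 3.

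Factors that act on histone gene promoters were 15 in number, all tested. Of these, 11 fell, 1 rose and 3 were not called, where 34.1% of all genes fell. *Npat*, the coactivator of histone genes in S phase, had 56.0, 54.8 and 53.8 CPM in control and 40.9, 42.3 and 53.5 CPM in senescent libraries. Its log2 fold change of -0.27 ± 0.10 passed narrowly (adjusted p = 0.0467 by edgeR), and the call was lost in 10 of 13 alternative analyses, 5 of which left out 1 library, with an adjusted p up to 0.148 without senescent replicate 1. *Cdk2* and *Ccne2*, a kinase and its cyclin that act on NPAT, had log2 fold changes of -2.15 ± 0.07 and -2.79 ± 0.13, and *Ccne1* of -1.24 ± 0.07. *Nfyb*, a subunit of the CCAAT-binding factor, rose from 32.9, 30.4 and 31.6 CPM to 37.0, 37.9 and 47.4 CPM (adjusted p = 0.0130 by edgeR), with the highest value in senescent replicate 3, and without control replicate 2 the call was lost (adjusted p = 0.0508).

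Histone chaperones carry new histones to DNA. Of 28 genes, all tested, 17 fell, 2 rose and 9 were not called, with a median log2 fold change of -0.49, where 34.1% of all genes fell. *Asf1b* fell from 39.6, 39.6 and 39.9 CPM to 2.06, 2.11 and 1.99 CPM, and *Chaf1b*, a subunit of the assembly factor that follows the replication fork, from 31.4, 30.7 and 31.8 CPM to 3.79, 4.34 and 3.99 CPM. *Hjurp*, the chaperone of CENP-A, had a log2 fold change of -2.07 ± 0.05. The genes that rose were *Spty2d1*, with a log2 fold change of 0.43 ± 0.08, and *Set*, with 0.27 ± 0.08. The call of *Set* was lost without control replicate 1, 2 or 3, with adjusted p from 0.0508 to 0.0789.

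Genes of S phase itself all fell. Of 20 replication and nucleotide synthesis genes, 20 were tested and 20 fell, with a median log2 fold change of -2.85, where 34.1% of all genes fell. *Tk1*, thymidine kinase, had a control mean of 84.2 CPM and a senescent mean of 1.33 CPM, and *Ccna2*, the S phase cyclin, means of 169 and 4.08 CPM. The summed level of the list was 1899 to 1910 CPM in control and 295 to 305 CPM in senescent libraries. In RNA that passed the poly(A) selection, the clustered histone genes and the S phase genes moved in opposite directions in the same 6 libraries. Stem-loop-ended histone mRNA without a tail is outside this comparison.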

How the data were processed

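RNA-seq was measured in 3 control and 3 senescent MAF libraries. Per the study's methods, the authors ran the MAPRSeq pipeline on paired reads of 100 bases (200 ng of total RNA per library), with STAR against mm10 and Subread for counting, and deposited raw gene counts. The strand setting and the handling of multi-mapping reads are not given in the sources used here. Genes were kept by filterByExpr (17589), scaled by TMM (factors 0.968 to 1.03) and tested with edgeR 4.0.16 (R 4.3.3), robust quasi-likelihood test, with Benjamini-Hochberg adjustment over all genes tested. A gene was called at an adjusted p under 0.05. SE is the log2 fold change divided by the square root of F. The fit was tested on simulated data. The members and lists were chosen with earlier results of these data known. Named in full were up to 4 tested genes per class with the highest mean CPM and the 5 largest increases with a mean count of 50 or more and no overlap (no decrease qualified). Beside these, other members are given by counts or range. Of the other lists, named genes were up to 3 in each direction with the smallest p, and 8 fixed genes. Alternatives were other scaling, filters and tests (DESeq2 1.42.0), the replicate block and each library left out. Totals of 50288454 counts or more make 1 count at most 0.0204 CPM. Coordinates are the deposited ones (mm10). Gene models and stem-loops came from GENCODE M21, which matched all 68 genes, 2 of them by symbol, and which swaps the names *Hist2h2aa1* and *Hist2h2aa2*, followed here by identifier. Its span equals the deposited one for 44 of the 68 genes, so an annotated end can lie outside the counted span. GENCODE M21 lists the identifier of *Hist2h2bb* as *Gm42743*, a long noncoding RNA, so the stem-loop search for that member read this model. Promoters came from RefSeq GRCm38.p6. Proteins and reads along genes were not analysed here.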

Additional observations from a re-analysis of the deposited data

Results flagged for a closer look

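The histone pseudogene *Hist3h2bb-ps*, left out of the family by its annotated type, held 3, 1 and 4 counts in the senescent libraries, 8 in all, and 0 counts in each control library. It lies beside *Hist3h2a* on chromosome 11 (chr11:58954048-58954512). It stood out because its counts lie outside the comparisons above and exceed the control libraries. The size is that of single counts, and no fold change is given.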

How the results depend on the processing

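Of the 57 named genes and tested members, 48 had the same call and direction in each of the 13 alternatives in which they could be tested, and no direction was reversed. For 34 of the 57 this covers all 13, and only 12 of the 35 tested members are among these, since the others were below a filter in 1 or more alternatives. The number of histone genes called higher was 31 with RLE or library size scaling, the edgeR exact test and DESeq2, and 36 of 64 with no filter beyond 1 count. With at least 10 counts in every library it was 12, since 12 genes were left. It was 29 to 33 with each library left out. None was called lower in any setting. The median of the tested members was 1.97 with no filter, 1.81 with 10 counts in every library and 2.40 to 2.80 with 1 library left out, highest without control replicate 2. By class, medians with no filter were 1.86 (H1), 2.14 (H2A), 1.48 (H2B) and 2.54 (H3), and with 10 counts in every library 1.72 (H1), 0.62 (H2A, 1 gene), 2.60 (H3) and 1.30 (H4). By cluster they were 1.94 and 1.72 for Hist1, and 2.51 with no filter for Hist3, which then held 2 genes. Leaving out 1 library gave 1.75 to 2.80 for H1, 2.79 to 3.21 for H2A, 1.68 to 2.00 for H2B, 2.62 to 3.06 for H3, 1.95 to 3.33 for H4 and 2.68 to 3.02 for Hist1. The sets tested differ between filters. With 1 library left out, *Hist1h2bn* (without control replicate 3 or senescent replicate 3), *Hist1h4j* (without senescent replicate 1) and *Hist4h4* (without control replicate 1 or senescent replicate 3) gained a call.

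Same-numbered libraries did not deviate together: correlations were -0.15, 0.14 and -0.12, and differently numbered libraries gave -0.21 to 0.26. With 3 libraries per group, this does not decide whether the numbers pair samples. A fit with the replicate number as a block called 32 histone genes higher, *Hist4h4* added. It called neither *Npat* nor *Ncbp2*.

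Depth limits the genes with few control counts: their ratios have wide counting intervals, and the 33 members below the filter could not be tested. Shared sequence is a further limit. In 14 members under 20% of the 100-base stretches are their own, and 4 of these were tested. The median share was 70.2% in tested and 53.6% in untested members.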
